A study of Danio rerio with 184 samples.

Results

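The ribosomal protein genes studied here are the rows of a single-cell table whose zebrafish gene symbol begins with rpl or rps followed by a digit, in any letter case, leaving out the rps6k kinase genes. The rule found 77 of 12354 genes, 41 with an rpl symbol (large ribosomal subunit) and 36 with an rps symbol (small subunit). The rule also takes rps19bp1 and RPL7L1, whose symbols match but which name an RPS19-binding protein and an RPL7-like protein. Nearly all of these genes encode structural proteins of the cytosolic ribosome, which assembles with 1 copy of most of them, so that balanced amounts are needed. Their mRNAs are among the most abundant in growing cells and are known for being controlled together, in large part at translation. Hair cells are the mechanosensory cells of the inner ear and of the fish lateral line, where they sit in small surface patches called neuromasts and are replaced throughout life.

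The cells were GFP-positive hair cells (transgene Tg[myo6b:actb1-EGFP], driven by a hair cell myosin promoter) sorted from trunks of larvae at 6 days post fertilization. Each of the 184 samples is 1 cell, 92 labelled Emx2-mutant and 92 labelled wild-type, with 46 cells of each label on each of plates 2 and 4. Mutant-label cells (those labelled Emx2-mutant) filled one side of each plate and wild-type cells the other, so genotype and plate side cannot be told apart. Emx2 is a homeobox transcription factor of hair cell orientation, and the sources used here say nothing of its allele.

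The labels tie no cell to an animal or pool, and each genotype therefore counts as 1 sample. No test was made and no p-value is given, and every interval is a 95% interval that covers counting error only, without the spread between cells or animals. Transcripts were counted as unique molecular identifiers (UMIs), 1 per captured mRNA 3′ end. Cells with at least 1000 UMIs were kept, which left 92 mutant-label cells (1000 to 15923 UMIs) and 90 wild-type cells (1576 to 33325 UMIs). No barcode was shared between cells. The targeted gene, listed as EMX2, was higher in the mutant-label cells, at 192.5 CPM (UMIs scaled to 1000000 UMIs of the genotype) against 83.7 CPM in wild-type cells (ratio 2.30, 1.61 to 3.34). A 3′ tag may lie outside the altered part, so this does not check the label. Of 16 hair cell markers, not counting pvalb8 (described below), 12 had at least 50 UMIs. They were led by s100t at 42506 CPM in mutant-label cells and 42875 CPM in wild-type cells. Of these 12, 8 were higher in mutant-label cells, and the median log2 ratio of the 12 was 0.15. Among all 2144 genes with at least 50 UMIs, 58.7% were lower and the median was -0.09. The 8 include s100s at 3851 CPM in mutant-label cells against 3222 CPM in wild-type cells (ratio 1.20, 1.12 to 1.27). Among lists of other cell types, the leukocyte list had 1 UMI in all, the neuron and glia list 26, the support cell list 316, the muscle list 1326 and the epidermis list 2448.

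Ribosomal protein transcripts took up a small and variable part of each cell. They held 17554 of 545364 UMIs in mutant-label cells and 22008 of 537512 UMIs in wild-type cells. Because the calcium-buffer gene pvalb8 alone takes a median of 24.5% of UMIs in mutant-label and 22.9% in wild-type cells, the share is given below over the UMIs left after pvalb8 unless another base is named.

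On plate 2 the share ran from 1.46% through a median of 4.22% to 6.97% in mutant-label cells, and from 2.94% through 4.49% to 9.66% in wild-type cells. On plate 4 it ran from 2.91% through 3.75% to 6.85% in mutant-label cells, and from 2.70% through 3.84% to 11.02% in wild-type cells. The medians lay close together and the ranges overlapped on both plates, while the upper end was higher in wild-type cells. The SD between cells was 0.907 and 0.852 percentage points in mutant-label cells on plates 2 and 4, against 1.56 and 1.98 in wild-type cells. Over all UMIs, pvalb8 included, the medians were 3.13% and 2.83% in mutant-label cells and 3.48% and 2.85% in wild-type cells.

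A share above 6% was seen in 4 of 92 mutant-label cells (4.35%) and in 16 of 90 wild-type cells (17.8%). The wild-type cells above 6% came from both plates, 9 from plate 2 and 7 from plate 4. The spread was far wider than counting gives. The variance between cells was 17.03 and 7.04 times the binomial variance in mutant-label cells on plates 2 and 4, against 37.4 and 28.3 times in wild-type cells. This multiple rises with the UMIs per cell, so its size is not comparable between groups of unlike depth. The median UMIs per cell were 7560.5 and 3682.5 in mutant-label cells on plates 2 and 4, against 6261.5 and 3495 in wild-type cells.

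**Figure D1:**
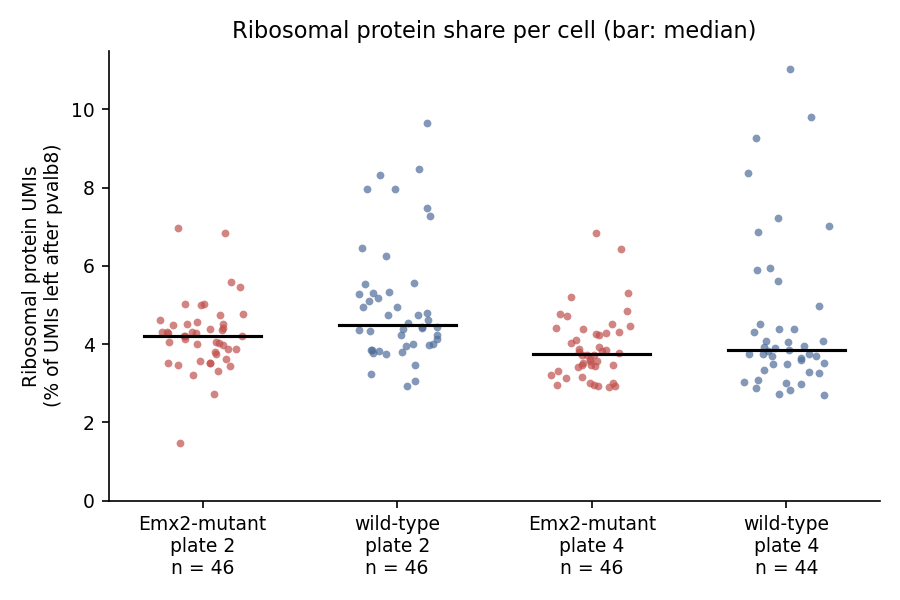
Ribosomal protein UMIs as a percent of the UMIs left after pvalb8 (y axis), 1 point per cell, by genotype and plate, with the median as a bar. The medians are 4.22% and 4.49% on plate 2 and 3.75% and 3.84% on plate 4 (mutant-label, then wild-type), and 4 mutant-label and 16 wild-type cells lie above 6%.

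Summed over cells, the ribosomal protein share of all UMIs was 3.22% in mutant-label cells and 4.09% in wild-type cells, a ratio of 0.786 (0.771 to 0.802). It was 0.768 on plate 2 and 0.825 on plate 4. The sum gives deep cells more weight: the deepest wild-type cell, with 33325 UMIs and a share of 7.96%, held 10.1% of the wild-type ribosomal protein UMIs, and without the deepest cell of each genotype the ratio was 0.815. The ratio of the median shares of all UMIs was 0.957. Without the cells in which pvalb8 was under 20% of UMIs, the summed ratio was 0.991.

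Single members mostly lay on the same side as their sum. Of the 74 members with at least 50 UMIs, 65 had a lower CPM in mutant-label cells and 9 a higher one, and 54 were lower on both plates against 4 higher on both. Over all 2144 genes with at least 50 UMIs, 58.7% were lower, 33.2% were lower on both plates and 20.6% higher on both. A level of 0.8 times the wild-type one or less was found for 45 of the 74, beside a background of 28.9% of those genes. The median log2 ratio of the members was -0.38, against -0.09 over all 2144 genes. With the cells under 20% pvalb8 left out, 42 of 73 members were lower and the median was -0.04. No share or median over all genes was taken for that set of cells, so this count has no background beside it. The counting interval lay below 1 for 44 members, above 1 for 1 member and on both sides of 1 for 29. No such count over all genes is given beside it, and a counting interval narrows as UMIs rise, so this count describes the members only.

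The most counted large-subunit member was rpl32. It had 1489 and 1688 CPM in mutant-label cells on plates 2 and 4, against 2034 and 2133 CPM in wild-type cells, a ratio of 0.751 (0.685 to 0.821). It was lower on both plates. RPL3, which encodes a core protein near the peptidyl transferase centre, had a ratio of 0.849 (0.765 to 0.942), RPL19 one of 0.799 (0.717 to 0.891), RPL7 one of 0.787 (0.702 to 0.882) and rpl7a one of 0.905 (0.810 to 1.01).

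Among small-subunit members RPS2 was counted most. It had 1164 and 1541 CPM in mutant-label cells on plates 2 and 4, against 1619 and 1941 CPM in wild-type cells, a ratio of 0.743 (0.673 to 0.821). The ratio was 0.764 (0.688 to 0.847) for rps20, 0.871 (0.772 to 0.982) for RPS28, 0.743 (0.651 to 0.849) for rps27.1 and 0.893 (0.781 to 1.02) for RPS19, whose human counterpart is mutated in Diamond-Blackfan anaemia. For rps27.1 the plates were unlike, with 0.853 on plate 2 and 0.511 on plate 4.

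**Figure D2:**
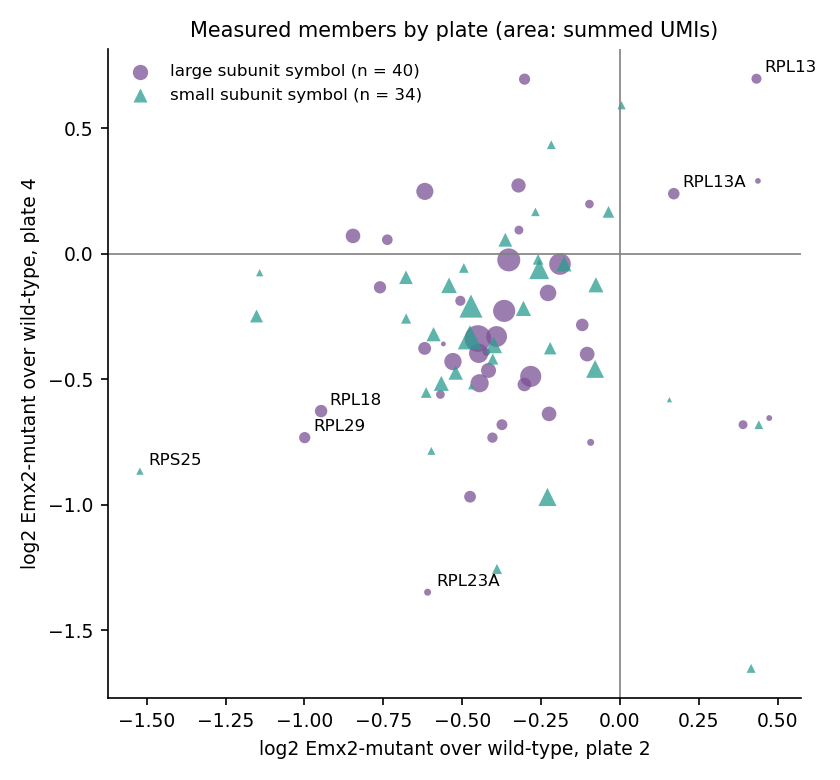
The log2 ratio of mutant-label over wild-type CPM of the 74 measured members on plate 2 (x axis) and plate 4 (y axis), with circles for large- and triangles for small-subunit symbols and area by summed UMIs. Of these members 54 lie below 0 on both axes and 4 above 0 on both, and the members named in the plot depart from the rest.

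Genes of the same machinery outside the rule were set beside the members, with 58.7% of all genes lower as the background for each count. Of 8 further ribosome genes 7 were lower in mutant-label cells, with a median log2 ratio of -0.39. The acidic stalk gene RPLP0, whose protein anchors the elongation factor binding stalk, had 944 CPM in mutant-label cells and 1486 CPM in wild-type cells (ratio 0.635, 0.568 to 0.711), and RPLP1 had 744 and 1103 CPM (0.675, 0.593 to 0.767). Of 23 measured translation factor genes 17 were lower, with a median of -0.22. The elongation factor gene eef1a1l1 had a ratio of 0.861 (0.782 to 0.949) and the poly(A)-binding protein gene pabpc1a one of 0.928 (0.826 to 1.04). Of 6 measured ribosome assembly genes 4 were lower, among them NOP58, a snoRNP protein gene, at 0.519 (0.322 to 0.821), while the nucleolin gene ncl had 1.71 (1.15 to 2.57). Of 30 measured mitochondrial ribosome genes 19 were lower, with a median of -0.21, and the most counted, MRPS10 and MRPL24, had ratios of 0.998 (0.719 to 1.39) and 0.711 (0.471 to 1.06). The shares of assembly and mitochondrial ribosome genes that were lower lay near the background.

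Among cells there was a link between the ribosomal protein share and pvalb8, a parvalbumin gene of calcium buffering, seen in wild-type cells. Spearman's rho between the ribosomal protein share and the pvalb8 share was -0.06 and 0.10 in mutant-label cells on plates 2 (n = 46) and 4 (n = 46), against -0.59 and -0.52 in wild-type cells (n = 46 and 44). Both shares come from the same cells and libraries, and pvalb8 is left out of the base of the first. The difference between the genotypes was not tested.

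Within each genotype and plate, cells below the median pvalb8 share (low-pvalb8 cells) were set against those at or above it (high-pvalb8 cells). In mutant-label cells the summed ribosomal protein share was 4.26% in low- and 4.19% in high-pvalb8 cells on plate 2, and 4.15% and 3.98% on plate 4. In wild-type cells it was 6.16% in low- and 4.198% in high-pvalb8 cells on plate 2, and 5.70% and 3.58% on plate 4. The ratio of low to high was thus 1.02 (0.982 to 1.06) and 1.04 (0.987 to 1.101) in mutant-label cells, against 1.47 (1.42 to 1.52) and 1.59 (1.51 to 1.68) in wild-type cells. Medians of cell shares put mutant-label cells on the other side, at 4.07% (low) and 4.22% (high) on plate 2, and 3.73% and 3.81% on plate 4. In wild-type cells the medians were 5.32% and 4.23% on plate 2, and 4.69% and 3.67% on plate 4. The deepest wild-type cell, a low-pvalb8 cell of plate 2, held 2221 of the 10531 ribosomal protein UMIs summed there. Low-pvalb8 cells were not equally low in both genotypes: their median pvalb8 share was 21.8% and 21.6% in mutant-label cells on plates 2 and 4, against 19.1% and 17.6% in wild-type cells.

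Cells in which pvalb8 was under 20% of UMIs numbered 14 of 92 in mutant-label and 26 of 90 in wild-type cells. Among them the median ribosomal protein share was 5.06% (6 cells) and 3.90% (8 cells) in mutant-label cells on plates 2 and 4, against 6.46% (13 cells) and 6.86% (13 cells) in wild-type cells. In the remaining cells it was 4.21% and 3.73% in mutant-label cells, against 4.35% and 3.71% in wild-type cells. The genotypes were thus near each other in the cells with more pvalb8 and apart in the cells with less. The cells under 20% were not matched between the genotypes on pvalb8 or on UMIs per cell. Their lowest pvalb8 share was 9.79% (mutant-label) and 11.3% (wild-type) on plate 2. On plate 4 it was 13.7% and 9.70%, in the same order. Whether the medians also part at equal pvalb8 was not tested. Of the cells above 6% ribosomal protein UMIs, pvalb8 was under 20% in 4 of 4 mutant-label and in 15 of 16 wild-type cells. Without the cells under 20% pvalb8, rho was 0.05 and 0.22 in mutant-label cells on plates 2 and 4, against -0.16 and -0.15 in wild-type cells. This cut narrows the range of pvalb8 itself, so these values cannot be set against those over all cells as measures of the link.

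**Figure D3:**
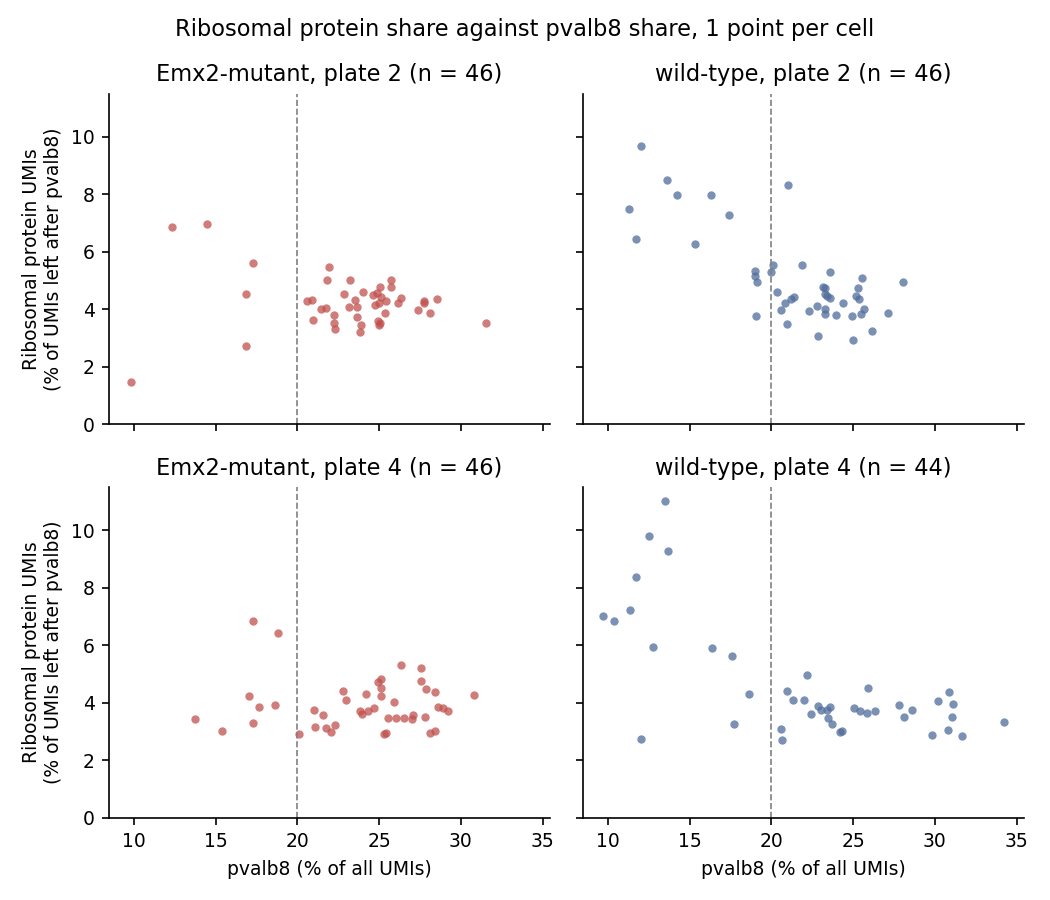
Ribosomal protein UMIs as a percent of the UMIs left after pvalb8 (y axis) against the pvalb8 share of all UMIs (x axis), 1 point per cell, by genotype and plate, with a dashed line at 20% pvalb8. The wild-type cells left of the line have median shares of 6.46% and 6.86% on plates 2 and 4, against 4.35% and 3.71% right of it.

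In wild-type cells nearly every member lay on the side of the sum. Of 70 members with at least 50 UMIs there, 69 were higher in low- than in high-pvalb8 cells, all but rps3, beside 43.3% of all genes, and 60 by 25% or more, beside a background of 26.9% of 1165 genes. In mutant-label cells 40 of 69 were higher, beside 41.9% of all genes, and 16 by 25% or more, beside a background of 19.6% of 1135 genes. The median log2 ratio of the members was 0.06 in mutant-label cells and 0.66 in wild-type cells, against -0.09 and -0.11 over all genes. RPL34 had a ratio of low to high of 1.31 in mutant-label and 2.15 in wild-type cells, RPS2 ratios of 1.09 and 1.35, and rpl32 ratios of 0.953 and 1.11. The further ribosome genes had median log2 ratios of 0.16 in mutant-label and 0.73 in wild-type cells, with 8 of 8 higher in wild-type cells.

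**Figure D4:**
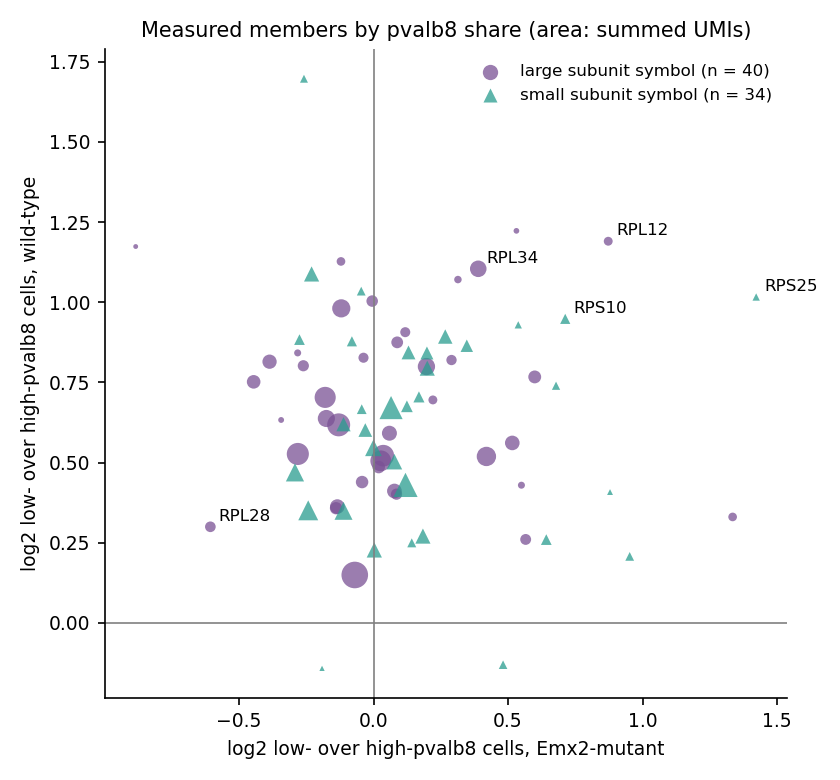
The log2 ratio of low- over high-pvalb8 cells for the 74 measured members in mutant-label cells (x axis) and wild-type cells (y axis), with circles for large- and triangles for small-subunit symbols and area by summed UMIs. Members with at least 50 UMIs in the genotype have a median of 0.06 in mutant-label cells and 0.66 in wild-type cells, and the labelled members depart from the rest.

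Spike-in transcripts, which are synthetic RNAs meant to be added in equal amount to each well, give a scale outside the cell's own RNA. After the 4 cells with over 20% spike-in UMIs were left out, the median number of ribosomal protein UMIs per spike-in UMI in low-pvalb8 cells was 1.05 and 0.913 times that in high-pvalb8 cells among mutant-label cells on plates 2 and 4, against 1.04 and 1.15 times among wild-type cells. For pvalb8 itself, whose share set the split and so fixes the direction, the same ratio was 0.844 and 0.891 in mutant-label cells, against 0.605 and 0.463 in wild-type cells. For all UMIs it was 1.04 and 1.08 in mutant-label cells, against 0.796 and 0.808 in wild-type cells.

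Other measures of the cell moved with the share too, and their part in it was not tested. Mitochondrial genes were those whose symbol begins with MT-, in any letter case, and their UMIs stay in the base of the ribosomal protein share. The mitochondrial share had a rho of -0.46 and -0.44 with the ribosomal protein share in mutant-label cells on plates 2 and 4, against -0.39 and -0.23 in wild-type cells. The spike-in share had -0.07 and -0.04 in mutant-label cells, against 0.28 and 0.28 in wild-type cells, and the total UMIs 0.20 and 0.35, against 0.14 and 0.10. The GFP reporter transcript had 0.11 and -0.07 in mutant-label cells, against 0.33 and 0.39 in wild-type cells. Support cell markers summed to a median of 0.020% of UMIs (0 to 1.01%) in mutant-label and 0.011% (0 to 0.220%) in wild-type cells. The 3 with at least 50 UMIs were all higher in mutant-label cells, beside 58.7% of all such genes lower. For her4.2 the interval took in 1 (0.899 to 2.53). Under 50 UMIs, her4.1 was lower, with 9 UMIs in mutant-label and 18 in wild-type cells. LFNG (32 and 5) and stm (7 and 2) were higher. The rho of the summed support cell markers with the ribosomal protein share was 0.09 and -0.10 in mutant-label cells, against -0.01 and 0.15 in wild-type cells. Muscle markers summed to a median of 0.100% (0 to 0.727%) in mutant-label and 0.132% (0 to 1.03%) in wild-type cells, and both measured ones were lower in mutant-label cells, atp2a1 at 0.567 (0.5001 to 0.642) and actc1b at 0.864 (0.619 to 1.20). Their rho with the ribosomal protein share was -0.11 and -0.23 in mutant-label cells, against 0.03 and -0.20 in wild-type cells. Of the 1326 muscle UMIs, 1101 were of atp2a1, so the muscle sum and its rho mostly describe that gene. Epidermis markers summed to a median of 0.275% (0 to 0.859%) in mutant-label and 0.267% (0.070 to 1.05%) in wild-type cells, with 3 of 4 measured ones lower in mutant-label cells and TP63 at 1 UMI. The most counted were krt5 at 1.03 (0.920 to 1.15) and epcam at 0.972 (0.851 to 1.11), while krt91, named after its values were seen, was 0.375 on plate 2 and 1.04 on plate 4. Their rho was 0.07 and 0.14 in mutant-label cells, against 0.32 and 0.01 in wild-type cells.

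The transcription factor gene atoh1a (ENSDARG00000055294, listed as ATOH1), which starts the hair cell fate, was counted rarely. To compare cells of unlike depth, 2000 UMIs were drawn at random from each cell, without 3 mutant-label and 2 wild-type cells that had fewer, and a cell was taken as having the gene if 1 UMI or more remained. This held for 9 of 89 mutant-label and 15 of 88 wild-type cells; without thinning it held for 26 of 92 and 29 of 90. No cell type that should lack the gene was measured, so the part of these UMIs that is background is unknown. In mutant-label cells the median ribosomal protein share with and without atoh1a was 4.28% (3 cells) and 4.21% on plate 2, and 4.35% (6 cells) and 3.73% on plate 4. In wild-type cells it was 7.47% (3 cells) and 4.43% on plate 2, and 3.80% (12 cells) and 3.90% on plate 4. The 3 wild-type cells of plate 2 lay between 7.29% and 8.49%, and pvalb8 took a median of 13.6% of their UMIs against 23.01% in the cells without atoh1a. Drawing 3000 UMIs per cell changes which cells are taken as having atoh1a. The log2 ratio of the medians in wild-type cells of plate 2 was then -0.03 in place of 0.75. Over all cells 48 of 74 members were higher in cells with atoh1a, beside 51.8% of 2121 genes, and 22 by 25% or more, beside a background of 32.4%. The median log2 ratio was 0.13 over the members and 0.03 over all genes. These member values sum cells of both genotypes and plates. Wild-type cells made up 15 of the 24 cells with atoh1a and 73 of the 153 without, and the part of this mix was not tested.

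The Notch ligand gene dld (ENSDARG00000008785, listed as DLD), which signals from a young hair cell to its neighbours, was seen more often, in 25 of 89 mutant-label and 30 of 88 wild-type cells of the same draw, and in 51 of 92 and 49 of 90 before it. In mutant-label cells the median share with and without dld was 4.103% (16 cells) and 4.26% on plate 2, and 3.47% (9 cells) and 3.84% on plate 4. In wild-type cells it was 5.30% (16 cells) and 4.39% on plate 2, and 3.88% (14 cells) and 3.83% on plate 4. The ranges with and without dld overlapped in every group. The median pvalb8 share with and without dld was 20.5% and 23.3% in wild-type cells of plate 2, and 22.7% and 24.2% on plate 4. For mutant-label cells it was 24.8% and 23.6% on plate 2, and 23.9% and 25.1% on plate 4. The part of pvalb8 in the link to dld was not tested. In mutant-label cells the side of the median ribosomal protein shares changed with depth. Their log2 ratio was -0.05 and -0.14 on plates 2 and 4 in this draw. It was 0.004 and 0.10 with 1000 UMIs drawn per cell, 0.11 and 0.19 with 3000, and 0.12 and 0.13 without thinning. In wild-type cells it stayed positive on plate 2. On plate 4 it was 0.02 in this draw, then -0.06, -0.02 and -0.03 in the same order. Summed UMIs gave a ratio of with to without of 1.24 (1.20 to 1.28) on plate 2 and 0.871 (0.826 to 0.917) on plate 4 in wild-type cells, so the plates lay on opposite sides of 1. Over all cells 57 of 74 members were higher with dld, beside 50.8% of 2121 genes, and 19 by 25% or more, beside a background of 23.7%. The median log2 ratio was 0.14 over the members and 0.01 over all genes. These member values sum cells of both genotypes and plates. Wild-type cells made up 30 of the 55 cells with dld and 58 of the 122 without, and the part of this mix was not tested. The rho of the ribosomal protein share with the dld share, without thinning, was 0.22 and 0.15 in mutant-label cells on plates 2 and 4, against 0.43 and -0.005 in wild-type cells.

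Large- and small-subunit transcripts stood in similar proportion in both genotypes. The ratio of large- to small-subunit UMIs was 1.32 (1.27 to 1.36) and 1.37 (1.29 to 1.45) in mutant-label cells on plates 2 and 4, against 1.32 (1.28 to 1.36) and 1.31 (1.251 to 1.38) in wild-type cells, with overlapping intervals. In low-pvalb8 cells it was 1.32 (1.28 to 1.35), against 1.34 (1.29 to 1.38) in high-pvalb8 cells. Per cell, the ratio ran from 0.614 through a median of 1.35 to 2.26 in mutant-label cells, and from 0.880 through 1.31 to 2.88 in wild-type cells. The large-subunit share of ribosomal protein UMIs was also set against counting. Its variance between cells was 2.03 and 1.33 times the binomial variance in mutant-label cells on plates 2 and 4. In wild-type cells it was 2.97 and 1.44 times, and this multiple too rises with the UMIs per cell. The summed share was lower in mutant-label cells for each subunit, with a ratio of 0.789 (0.769 to 0.810) for the large and 0.782 (0.758 to 0.806) for the small. Cells with a higher large-subunit share also had a higher small-subunit share, with a rho of 0.57 and 0.45 in mutant-label cells on plates 2 and 4, against 0.59 and 0.65 in wild-type cells.

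**Figure D5:**
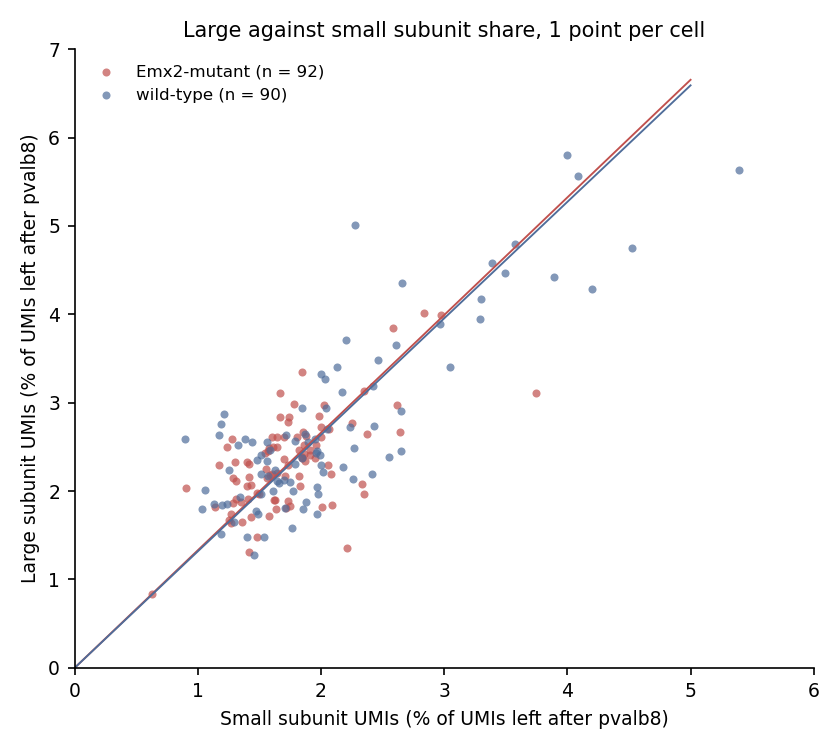
Large-subunit UMIs (y axis) against small-subunit UMIs (x axis), both as a percent of the UMIs left after pvalb8, 1 point per cell, coloured by genotype, with a line for the summed ratio of each genotype. The lines have slopes of 1.33 in mutant-label cells and 1.32 in wild-type cells and nearly coincide.

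The members also varied together one by one. For the 62 members with at least 200 UMIs, the rho of a member's share with the summed share of the others was positive for 57 and 50 members in mutant-label cells on plates 2 and 4, against 61 and 58 in wild-type cells. Its median was 0.20 and 0.15 in mutant-label cells, against 0.28 and 0.25 in wild-type cells. Over 555 other genes the median was 0.02 and 0.01 in mutant-label cells, against -0.01 and -0.02 in wild-type cells, and 55.7% and 53.9% of them were positive in mutant-label cells, against 46.5% and 46.7% in wild-type cells. Most members have few UMIs in a cell, and the part of this in the size of a single member's rho was not tested.

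Among 206 genes outside the rule with at least 500 UMIs, 20 had a positive and 43 a negative rho with the ribosomal protein share in both genotypes on both plates. The most alike was RPSA2 (ENSDARG00000019181), the table's name for a small-subunit protein gene that the rule does not take. Its rho was 0.29 and 0.48 in mutant-label cells on plates 2 and 4, against 0.36 and 0.38 in wild-type cells. Next came the elongation factor gene eef1a1l1, with 0.56 and 0.28 in mutant-label cells and 0.34 and 0.36 in wild-type cells, and zgc:55461. The others were s100t, prrc2a, gstp1.1, si:dkey-151g10.6, which the RefSeq gene table also calls rpl41, and RPLP0. The hair cell marker s100s went the other way from s100t. Its rho was -0.27 and -0.09 in mutant-label cells on plates 2 and 4, against -0.30 and -0.27 in wild-type cells. The most opposed was the mitochondrial gene MT-CO2, with -0.46 and -0.47 in mutant-label cells and -0.46 and -0.38 in wild-type cells. It was followed by ENSDARG00000080337, MT-ATP6, ENSDARG00000082753, MT-CYB, mt-nd4l, MT-CO1 and EIF1B, so 5 of the 8 most opposed were mitochondrial genes by symbol. ENSDARG00000080337 and ENSDARG00000082753 had no symbol, so whether they too are mitochondrial was not checked. Mitochondrial UMIs stay in the base of the ribosomal protein share, and the part of this in the negative rho was not tested.

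Some members departed from the rest by genotype. Each of 69 members with at least 100 UMIs was divided by all other members. A departure was a relative ratio of 1.3 or more either way, with an interval leaving out 1 and the same side on both plates. The interval covers counting error only, and no background over other genes is given for this rule. On the higher side were 3 members, among them RPL13 and RPL13A. RPL13 had 333.0 and 229 CPM in mutant-label cells on plates 2 and 4, against 247 and 141 CPM in wild-type cells. Relative to the other members it was 1.81 (1.42 to 2.32), and 1.93 without the cell that held most of its UMIs in each genotype. RPL13A, a different protein that in mammals also takes part in silencing of inflammatory mRNAs, had a relative ratio of 1.46 (1.18 to 1.80).

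On the lower side were RPS25, RPL29, RPL18 and RPL23A. RPS25 had 66.6 and 112 CPM in mutant-label cells on plates 2 and 4, against 191 and 204 CPM in wild-type cells. Relative to the other members it was 0.524 (0.360 to 0.752). RPS25 is known from yeast and human cells for its part in initiation at internal ribosome entry sites. RPL29 stood at 0.669 (0.532 to 0.837), RPL18 at 0.697 (0.568 to 0.852) and RPL23A at 0.661 (0.454 to 0.952) relative to the other members. Without the cells under 20% pvalb8 the intervals of RPS25 (0.655, 0.398 to 1.07) and RPL23A (0.863, 0.535 to 1.40) took in 1.

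Departures with pvalb8 were fewer. Relative to the other members, RPS25 was 1.77 (1.21 to 2.65) times as high in low- as in high-pvalb8 cells of both genotypes together, RPL12 1.62 (1.19 to 2.22), RPS10 1.43 (1.11 to 1.87) and RPL34 1.33 (1.14 to 1.56). RPL28 lay on the other side at 0.744 (0.592 to 0.937). RPL12 sits at the base of the stalk that binds elongation factors, and its own ratio of low to high was 1.83 in mutant-label and 2.28 in wild-type cells.

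More members departed between the plates than between the genotypes. Of the 69 compared, 11 were relatively higher and 9 relatively lower on plate 2 than on plate 4 in both genotypes. Between the genotypes these numbers were 3 and 4. No background over other genes is given for these counts, and some of the members are named here. RPL17 had 392 and 235 CPM in mutant-label cells on plates 2 and 4, and 601 and 306 CPM in wild-type cells, a relative ratio of plate 2 over plate 4 of 1.67 (1.33 to 2.12). RPL27 had 1.68 (1.26 to 2.27), RPL36AL 1.53 (1.17 to 2.02), RPL18 1.44 (1.15 to 1.82), RPL26 1.43 (1.21 to 1.69), RPS28 1.32 (1.15 to 1.52) and RPS19 1.31 (1.12 to 1.53). The lower side held RPL23A at 0.511 (0.359 to 0.728), RPL34 at 0.648 (0.559 to 0.752), RPS2 at 0.713 (0.644 to 0.790) and RPL3 at 0.724 (0.651 to 0.807). It also held RPL22, the RPL5 copy ENSDARG00000015862 and the RPS26 copy ENSDARG00000037071. RPL23A and RPL18 departed by genotype as well.

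Near-identical gene copies may share reads, so their split is uncertain. Of the 2 RPL5 genes, whose product binds 5S rRNA, the copy ENSDARG00000015862 took 54.1% (44.3 to 63.6) of the pair's UMIs in mutant-label cells and 66.1% (56.7 to 74.7) in wild-type cells, with overlapping intervals. The first RPS26 copy took 55.7% (46.5 to 64.7) and 53.5% (46.3 to 60.6) of its pair, and rps27.1 90.8% (87.6 to 93.3) and 90.5% (87.8 to 92.7) of the UMIs it shares with rps27.2, in mutant-label and wild-type cells.

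RPL22 and its paralog RPL22L1 split differently between the plates and alike between the genotypes. RPL22 took 75.5% (65.8 to 83.6) of the pair's UMIs on plate 2 and 94.2% (84.1 to 98.8) on plate 4 in mutant-label cells, and 74.8% (66.6 to 81.9) and 93.5% (84.3 to 98.2) in wild-type cells. RPL22L1 itself had 24 UMIs in 17 cells on plate 2 and 3 UMIs in 3 cells on plate 4 in mutant-label cells, against 34 UMIs in 19 cells and 4 UMIs in 4 cells in wild-type cells. Because cells of plate 2 were deeper, CPM compares the plates better. It was 63.9 and 17.6 on plates 2 and 4 in mutant-label cells, against 94.2 and 22.6 in wild-type cells. Among the 3 members with under 50 UMIs were rps27l and RPL7L1.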

How the data were processed

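Per the labels' protocols, single sorted cells were sequenced with mcSCRB-seq, a plate method that tags each 3′ end with a cell barcode and a UMI. The authors deposited raw UMI counts per gene and cell, not normalized. STAR 2.6.0a and the build GRCz11 are named in the submitters' processing notes, and the counting tool, annotation release and strand setting are not stated in any source used. Spike-in rows, 5.15% of UMIs, stayed out of library sizes. Symbols came from a table that named 11707 of 12354 gene identifiers. No sequences or coordinates were used here. Doublets were not called. The cells were sorted singly, but whether any well held more than a single cell was not tested.

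Counts were summed per genotype and, for each contrast, divided by all UMIs (without pvalb8 in the contrasts by pvalb8, atoh1a and dld), with a prior of 1 UMI in log2 ratios. Ratios have exact conditional intervals, computed with scipy 1.17.1. They were run on simulated counts drawn without any spread between cells, which checks their computation and not their coverage in these cells. Medians of cell shares, Spearman's rho per genotype and plate, and thinning to 2000 UMIs were used for cells. Members were named if they were the 5 most counted of a subunit, departed from the rest as described with at most 8 a side, were paralog pairs, or had under 50 UMIs; some members that this takes in are not reported here by name. Genes outside the rule were the 8 a side most alike in all 4 groups and the 2 most counted of each list. The members, lists and rules were chosen with earlier results of these data known. Alternatives used edgeR 4.0.16 and DESeq2 1.42.0 factors. A planned motif search at gene starts was not run. Replicate numbers only name the cells in accession order and pair none.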

Additional observations from a re-analysis of the deposited data

How the results depend on the processing

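The summed ratio of mutant-label to wild-type ribosomal protein share stayed below 1 in every alternative tried. It moved past its counting interval on plate 2 alone (0.768), on plate 4 alone (0.825), without the deepest cell of each genotype (0.815), without pvalb8 in the library size (0.808), with edgeR TMM factors (0.827), after thinning to 2000 UMIs (0.810) and as a ratio of mean cell shares (0.816). It was 0.957 as a ratio of median cell shares, an alternative chosen after seeing the data. Without the cells in which pvalb8 was under 20% of UMIs it was 0.991, with 42 of 73 members lower and a median log2 ratio of -0.037. The other alternatives gave 53 to 68 members lower, out of unlike numbers of members. These were 53 of 63 after thinning to 2000 UMIs, 53 of 66 on plate 4 alone and 68 of 77 with no minimum of UMIs per member. No share over all genes was taken under these alternatives. The ratio of the large- to small-subunit proportion between genotypes was 1.04 on plate 4 alone, against 1.01. The alternative that adds genes to the subunits had no match for the symbol rpsa. The pvalb8 link, as the mean rho of the plates, was 0.02 in mutant-label cells and -0.195 with pvalb8 kept in the base. In wild-type cells it was -0.555, and -0.730 as a Pearson correlation of log2 shares. Alternatives chosen after seeing the data gave weaker values, -0.155 without the cells under 20% pvalb8 and -0.283 with ribosomal protein UMIs per spike-in UMI. The first narrows the range of pvalb8 itself and leaves out 15 of the 16 wild-type cells above 6%. It therefore cannot measure the link over the whole range. The cause of these moves was not tested. Summed genotype ratios pooled the cells of both plates, with each plate alone given beside some of them. No blocked fit was made. Depth limits atoh1a and dld, with 96 and 250 UMIs in all.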
